A study of Drosophila melanogaster with 20 samples.

Results

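RAL737 is an inbred line of the Drosophila Genetic Reference Panel (DGRP), a collection of Drosophila melanogaster lines that were each derived from a wild-caught female and inbred, so that flies of a line are nearly identical genetically. The line is compared here with the other 9 lines of the study, RAL69, RAL93, RAL195, RAL304, RAL335, RAL359, RAL387, RAL409 and RAL819. Its members are the 2 libraries labelled with that genotype, out of 20 libraries in all. Of these 2, 1 came from flies without heat shock and 1 from flies frozen directly after 30 minutes at 35 °C (± 1 °C). Every library was made from the messenger RNA of 10 pooled whole males, 2 days old and kept at 25 °C, and every other line gave the same pair of libraries. The submitters classed RAL737 among 5 detrimental lines by its preconditioning outcome, and the other lines are 4 detrimental and 5 beneficial ones. They left RAL409 out of their own final tables as an outlier. That line is kept here, and the main counts are also given without it.

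Inbred lines from a natural population carry different alleles at many regulatory sites, and a gene whose level is set by such an allele can stand apart in a line in both treatments. Heat shock raised the Hsp70 copies in every line here. The transcription factor Hsf binds heat shock elements and drives chaperone genes such as these within minutes, while many other genes fall. Each line was sequenced with 1 pool per treatment, so nothing measured the spread between pools of RAL737. In whole-body RNA, fewer cells of a type and less RNA per cell cannot be told apart.

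Total counts were 24.4 M without and 18.4 M with heat shock in RAL737 (M, 1e+06 counts), and 22.8 to 33.7 M in the 18 other libraries, so that the heat shock library of RAL737 was the shallowest. Levels below are CPM, normalised read counts per 1e+06 counts of a library, with the library total scaled by the trimmed mean of M values (TMM). Male and tissue markers were present, as the label of a whole male has them, while female markers were not all absent. The male-specific RNA lncRNA:roX1 stood at 447 CPM in the unheated and 381 CPM in the heat-shocked library of RAL737. In the other libraries it lay at 280 to 590 CPM. The yolk protein gene Yp1 was at 0.113 and 0 CPM in RAL737, and Yp3 at 6.344 and 6.577 CPM (others 6.09 to 10.68). The eggshell gene Cp18 went from 0.225 CPM unheated to 15.99 CPM with heat shock (others 0.4398 to 21.2). The seminal fluid gene SP was at 184.1 and 109.1 CPM, its unheated value above the 44.56 to 165.4 CPM of the other libraries. Testis, flight muscle and eye genes were present in RAL737, with Mst87F at 397 and 414 CPM, Act88F at 1155 and 1208 CPM, and ninaE at 2616 and 2889 CPM. In the other libraries these genes lay at 279 to 466.4, 1142 to 3676 and 2664 to 3930 CPM, so that unheated RAL737 had the lowest ninaE of all libraries and both its Act88F values were near the lowest. Mitochondrially encoded genes took 2.96% of the counts of RAL737 without heat shock and 5.0% with it, and in 8 of the 9 other lines that share fell with heat shock.

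Among 13690 genes tested, RAL737 lay outside the range of all 9 other lines in both treatments, on the same side, for 827 genes, or 6.04%. It was the highest line for 420 of them (3.07% of those tested) and the lowest for 407 (2.97%). Without RAL409 the count was 1086, with 8 other lines left to lie outside of. With scaling by library totals in place of TMM it was 786, of which 494 were higher and 292 lower. Any line is the extreme one for some genes, and the same count ran from 511 in RAL359 to 1872 in RAL409, which put RAL737 in the middle, sixth of 10. Where a gap of at least 1.5-fold to the nearest other line was required in both treatments, 94 genes of RAL737 were left, 39 higher and 55 lower, against 22 to 165 in the other lines.

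**Figure D1:**
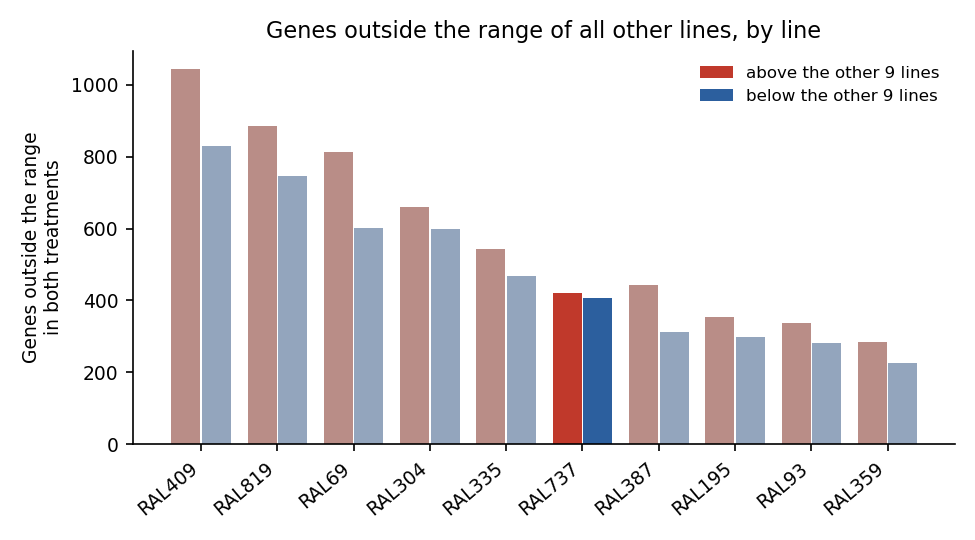
Number of genes (vertical axis) for which each line lay above (left bar) or below (right bar) all 9 other lines in both treatments, with lines in order of the total. RAL737, in full colour, had 420 genes above and 407 below, the sixth highest total of 10 lines.

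The plot of genes outside the range by line shows that all 10 lines had more genes above than below the rest, and that the 2 bars of RAL737 were of nearly equal height. Along the chromosomes the 827 genes were spread evenly over the autosomes. They were 6.12% to 6.86% of the genes tested on the arms 2L, 2R, 3L and 3R, 4.25% on the X and 8.25% of the 97 genes tested on chromosome 4.

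A test of RAL737 against the other lines, with treatment as covariate (edgeR's quasi-likelihood test, adjusted over all genes by Benjamini-Hochberg, threshold 0.05), called 123 genes, or 0.898% of those tested. Of these, 64 (0.467%) were higher in RAL737 and 59 (0.431%) lower. DESeq2 called 244, and the edgeR fit without RAL409 called 156. That fit takes both libraries of a line as independent, although the deviations of a line's heat shock library from the mean of its treatment followed those of its unheated library (correlation across genes 0.765 for RAL737), so its p-values are too small. With both libraries of each line summed, 1 line against 9, the test called 28 genes, or 0.205%, of which 16 (0.117%) were higher and 12 (0.0877%) lower, and limma-voom with line as a replicate block called 45, or 0.329%. The genes considered below are therefore the 27 (0.197% of those tested) that passed the fits on 20 libraries and on line sums and lay outside the range of the other lines on the same side in both treatments. They were 15 higher (0.11%) and 12 lower (0.0877%) genes, and 25 of them code for protein. In the single-treatment fits, 19 of the 27 were called without and 16 with heat shock. The 28th gene of the line sums, nompA, was inside the range with heat shock and is taken up with the heat shock response.

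**Figure D2:**
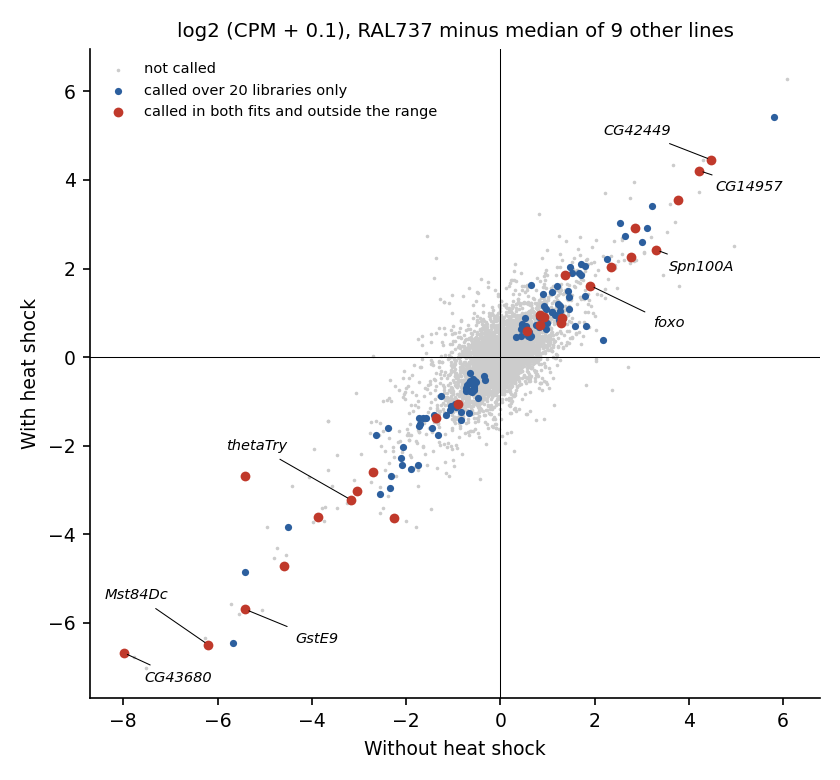
Difference between RAL737 and the median of the 9 other lines, as log2 of CPM + 0.1, without heat shock (horizontal axis) and with heat shock (vertical axis), 1 point per gene tested. Red points are the 27 genes that passed both fits and lay outside the range, blue points the other called genes, grey points the rest. Most called genes lie near the diagonal, with Mst84Dc and GstE9 far below 0 and CG42449 far above 0 in both treatments.

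In the scatter plot of the line difference, points far from 0 in both directions line up along the diagonal. For the red points this followed from their choice, as they had to lie outside the range on the same side in both treatments. The other called genes came from a fit with a line effect shared by both treatments. The place of coloured points near the diagonal therefore cannot show that a difference persisted with heat shock. Across genes, the deviations of the heat-shocked library of RAL737 followed those of its unheated library with a correlation of 0.765. A total of 11 genes were called under every one of the up to 19 alternatives that gave a value, namely foxo, Rop, CG42449 and CG44477 among the higher genes and Mst84Dc, GstE9, CG31921, BG642312, thetaTry, Cad96Ca and Tmem63 among the lower ones. The fit on line sums is among these alternatives and could not fail, since the genes had to pass it to be chosen.

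Among genes of signalling, foxo was higher in RAL737 by more than the whole spread of the other lines. It encodes the forkhead transcription factor that insulin signalling keeps out of the nucleus and that acts on growth, metabolism and stress resistance. The gene (FBgn0038197, 3R:14056945-14087978, plus strand, BDGP6) was at 273 CPM in the unheated and 266 CPM in the heat-shocked library of RAL737. In the other lines it lay between 64.4 and 91.5 CPM (median 72.5) without and between 80.2 and 126 CPM (median 86.8) with heat shock. Both values of RAL737 were above all 18 other libraries. The log2 difference was 1.68 ± 0.14 (SE), with an adjusted p of 2.42e-07 by edgeR on 20 libraries and 0.00131 on line sums. The nearest tested genes on either side, CG9922 and Npc2b, were within the range of the other lines, with log2 differences of -0.02 and -0.07. Of 16 tested genes of the insulin and adipokinetic hormone pathways, foxo and Akh were the 2 called. The list was chosen after the values were seen, so its share of calls cannot be read against the 0.898% of all genes. Not called were the insulin receptor InR (-0.31, adjusted p = 0.866), its substrate chico (-0.09, adjusted p = 0.919) and the translation inhibitor Thor, a known target of foxo (0.01, adjusted p = 0.999), in the same edgeR fit.

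Akh is one of 3 neighbours that were all higher in RAL737. The first, Rop, encodes a Sec1/Munc18 protein needed for vesicle fusion at synapses, and Ras64B, a Ras family small GTPase, is transcribed away from it. The annotation leaves 79 bases between these 2 genes, which are known to share a promoter region, and 68 bases between Ras64B and Akh. Rop (3L:4136359-4138996, minus strand) was at 231 and 240 CPM in RAL737, against 119 to 140 CPM (median 122) without and 119 to 146 CPM (median 129) with heat shock in the other lines. Its log2 difference of 0.88 ± 0.07 was small and had an edgeR adjusted p of 1.40e-07 (0.00384 on line sums). Ras64B (3L:4139076-4141398, plus strand) was at 80.7 and 92.0 CPM, against 43.6 to 55.3 CPM (median 45.3) and 42.3 to 54.3 CPM (median 47.9). It differed by 0.85 ± 0.09, with an edgeR adjusted p of 4.49e-06 and 0.0100 on line sums, and was not called in the libraries without heat shock alone (adjusted p = 0.0657). Akh (3L:4141467-4142070, plus strand), which encodes the adipokinetic hormone that mobilises stored fat and sugar, was at 16.8 and 17.1 CPM. In the other lines it lay between 5.06 and 11.3 CPM (median 6.92) without and between 3.76 and 10.0 CPM (median 7.69) with heat shock. Its log2 difference of 1.20 ± 0.23 was called by edgeR on 20 libraries (adjusted p = 0.00811) and not on line sums (adjusted p = 0.0723). For all 3 genes RAL737 did not overlap the other lines in either treatment. This is the rule by which such runs of neighbours were found, and 6.04% of all genes tested met it singly. The genes beyond them, RfC4 and CG32260, were within the range, with log2 differences of 0.00 and 0.37.

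**Figure D3:**
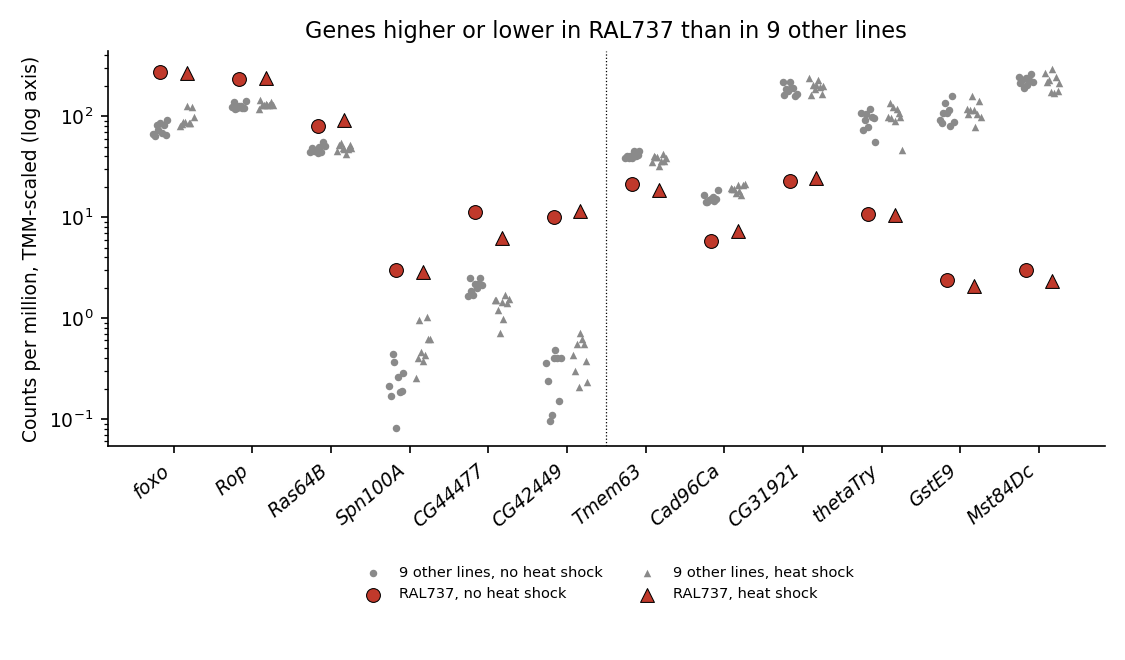
TMM-scaled CPM (log axis) of 6 genes that were higher and 6 that were lower in RAL737, left and right of the dotted line. Each small grey point is 1 of the 9 other lines and the large red points are RAL737, circles without and triangles with heat shock. For all 12 genes both red points lie outside the grey ones of the same treatment, as the rule for choosing them required.

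The plot of CPM by line shows both kinds of difference side by side. The separation of foxo, Rop and Ras64B was narrow on the log axis but larger than the whole spread of the other lines, and GstE9 and Mst84Dc lay more than a factor of 10 below them. Other genes that rose had low levels in all other lines. Spn100A, a serpin, which is a family of inhibitors of serine proteases, was at 3.0 and 2.89 CPM in RAL737 and reached 0.444 CPM in unheated and 1.03 CPM in heat-shocked libraries of the other lines. Its log2 difference was 3.05 ± 0.36 (edgeR adjusted p = 4.34e-05, and 0.0291 on line sums), and it was not called in the heat-shocked libraries alone or on line means.

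The largest fitted increase among the genes called was that of CG42449 (X:5683240-5684456, plus strand), whose function is not annotated in the sources used here. It was at 10.1 and 11.6 CPM in RAL737, against 0.0951 to 0.484 CPM (median 0.357) without and 0.208 to 0.715 CPM (median 0.435) with heat shock in the other lines. The log2 difference was 4.90 ± 0.32, with an edgeR adjusted p of 4.05e-09 on 20 libraries and 0.000244 on line sums. Its neighbour Tre1, a receptor that guides migrating germ cells, was also above the other lines (0.70 ± 0.12, edgeR adjusted p = 0.00353), but not called on line sums (adjusted p = 0.363). CG14957 was both high in RAL737 and heat responsive: it went from 3.27 to 20.1 CPM with heat shock in this line. In the other lines it had a median of 0.0809 CPM without and 0.992 CPM with heat shock. The fitted responses, 2.62 in RAL737 and 2.60 in the other lines on the log2 scale, were alike, with a difference of 0.02 (edgeR adjusted p = 1). The line difference was 4.21 ± 0.57 (edgeR adjusted p = 0.000183, and 0.0310 on line sums), and it was not called in the unheated libraries alone.

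Further higher genes of the rule were the noncoding lncRNA:CR44953 (3.71 ± 0.39) and lncRNA:CR46212 (3.01 ± 0.33), and the coding genes CG5172 (2.83 ± 0.44), CG44477 (2.33 ± 0.19), CG15080 (1.20 ± 0.23) and CG31516 (1.02 ± 0.14), on the log2 scale. CG5172 and CG15080 were not called with line as a replicate block (adjusted p = 0.0587 and 0.412), in either treatment alone, or on line means. Both noncoding RNAs and CG31516 were not called on line means, nor in 1 of the treatments alone, which was the unheated one for lncRNA:CR44953 and the heat-shocked one for the other 2. CG31516 lies within aux, on the opposite strand. The gene aux, which falls outside the naming rule and encodes auxilin, a partner of Hsc70 in clathrin uncoating, was itself higher by 0.78 ± 0.10 (edgeR adjusted p = 0.000131). It was at 124 and 103 CPM in RAL737 against at most 78.2 and 74.8 CPM in the other lines. The kit marks strand, but whether the counting used it is not given in the sources used here, so reads of these 2 overlapping genes cannot be told apart with certainty. In all, 10 of the 27 genes overlap the annotated span of another gene, 2 of them on the same strand, and the same limit holds there. Among them are GstE9 with imd, CG31921 with Plc21C, Tmem63 with Cul4, and Cad96Ca with CG13654. Swt1, also outside the naming rule and named after a yeast RNA endonuclease, was at 51.4 and 47.1 CPM against at most 37.7 and 32.9 CPM (0.59 ± 0.08, edgeR adjusted p = 0.000115). Neither aux nor Swt1 was called in either treatment alone or on line means.

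Several genes that fell in RAL737 belong to families of similar genes, and in each of them a single member was called. Mst84Dc belongs to a cluster of 4 genes expressed in the testis that encode small sperm tail proteins. In RAL737 it had 80 and 41 counts, or 3.0 and 2.33 CPM. The other lines had 191 to 261 CPM (median 227) without and 170 to 296 CPM (median 220) with heat shock. The log2 difference was -6.38 ± 0.26, with the smallest adjusted p of all genes in the edgeR fit on 20 libraries (3.19e-12, and 5.88e-06 on line sums). Its neighbours Mst84Da, Mst84Db and Mst84Dd were inside the range of the other lines, with log2 differences of 0.23, 0.19 and 0.33 and edgeR adjusted p-values of 0.870, 0.900 and 0.660. Of 39 testis genes tested, Mst84Dc was the 1 called, where 0.898% of all genes were, and the median difference of that list was 0.00, against -0.01 over all genes tested.

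GstE9 (2R:18409048-18409835, plus strand) fell among the epsilon-class glutathione S-transferases, enzymes that conjugate glutathione to foreign compounds and to products of lipid oxidation. It was at 2.40 and 2.10 CPM in RAL737, from 64 and 37 counts. The other lines were at 79.9 to 159 CPM (median 107) without and 78.2 to 157 CPM (median 114) with heat shock. The log2 difference was -5.61 ± 0.35 (edgeR adjusted p = 2.21e-09, and 0.000152 on line sums). Of the 14 GstE genes tested GstE9 was the 1 called, and 10 had a difference below 0. GstE14 also lay below all other lines in both treatments, without a call (-0.80 ± 0.26, edgeR adjusted p = 0.230). Its neighbours GstE6, GstE7 and GstE8 varied widely among the other lines, GstE6 from 0.849 to 185 CPM without heat shock, and RAL737 lay inside that range with 75.1 CPM. Across all 34 glutathione S-transferases tested, 4 lay below all other lines in both treatments and 0 above, where 2.97% of all genes lay below. Called lower were 2 and called higher 0, where 0.431% of all genes were called lower, and the median difference was -0.21. The second was GstZ1 (-1.14 ± 0.27, edgeR adjusted p = 0.0421), which was not called on line sums (adjusted p = 0.770).

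Among proteases of the gut, thetaTry fell. It belongs to a cluster of trypsin genes on 2R that are expressed in the midgut. RAL737 had 10.7 and 10.4 CPM, against 55.1 to 118 CPM (median 97.0) without and 46.3 to 137 CPM (median 98.8) with heat shock. The log2 difference was -3.18 ± 0.34 (edgeR adjusted p = 7.45e-06, and 0.0100 on line sums). All 11 trypsin genes tested had a difference below 0, yet thetaTry was the 1 called, and the 10 others had edgeR adjusted p-values from 0.187 for epsilonTry to 0.971 for lambdaTry. Trypsin genes are similar in sequence, and counts can be split between copies. Of 28 gut proteases tested, 5 lay below all other lines in both treatments and 0 above, where 2.97% of all genes lay below, and the median difference was -0.46, against -0.01 over all genes. One of the 5, Jon65Aii, had 5 counts in all in the RAL737 libraries and a level of 3.70 to 156 CPM in the others, but was not called (edgeR adjusted p = 0.107), since it varied strongly among the other lines too.

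Cad96Ca, also known as Stitcher, is a receptor tyrosine kinase with a role in epidermal wound repair. It was at 5.86 and 7.37 CPM in RAL737, against 14.3 to 18.7 CPM (median 15.2) without and 16.7 to 21.3 CPM (median 19.2) with heat shock, a log2 difference of -1.39 ± 0.12 (edgeR adjusted p = 2.87e-07, and 0.00414 on line sums). Tmem63, a member of a family of mechanically gated channels, was at 21.4 and 18.4 CPM, against 38.4 to 45.3 CPM (median 40.1) and 31.9 to 42.1 CPM (median 38.6). Its log2 difference was -0.99 ± 0.10 (edgeR adjusted p = 3.63e-06, and 0.0100 on line sums). Both genes were expressed at about the same level in all 9 other lines, so that a moderate shift set RAL737 apart.

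Of 88 seminal fluid and serpin genes tested, 1 rose and 2 fell, where 0.467% of all genes were called higher and 0.431% lower, and the median difference was 0.02. On line sums 2 of the 3 were called. The increase was that of Spn100A. Acp98AB, an accessory gland protein gene, fell to 15.2 and 5.78 CPM against lows of 54.5 and 26.1 CPM elsewhere (-2.84 ± 0.44, edgeR adjusted p = 0.00113). It was not called with line as a replicate block (adjusted p = 0.243) or in the heat-shocked libraries alone. The serpin Spn43Ab fell in the edgeR fit on 20 libraries (-1.03 ± 0.20, adjusted p = 0.00793) and not on line sums (adjusted p = 0.281). The accessory gland gene Acp26Aa was above all other lines, at 767 and 704 CPM, without a call (0.57, edgeR adjusted p = 0.420).

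The other genes that fell have no role stated here, and 2 of them had almost no counts in RAL737. CG43680, which lies within Sytbeta on the same strand, had 0 and 2 counts in RAL737, while the other lines had 17.1 to 45.1 CPM without and 15.1 to 54.5 CPM with heat shock. The ratio of the other lines to RAL737 was 622 over the summed libraries (95% exact counting interval 172 to 5133). Its edgeR adjusted p was 5.01e-06, and it was not called with line as a replicate block (adjusted p = 0.203). Sytbeta was inside the range. CG32115 had 3 and 1 counts, a ratio of 27.5 (10.7 to 101). CG43051 had 3 unheated and 16 heat-shocked counts, a pooled ratio of 17.95 (11.5 to 29.8). It was at 0.113 and 0.907 CPM, against medians of 8.95 and 6.35 CPM in the other lines, so that ratio pools 2 unlike gaps. Neither gene was called with line as a replicate block, and CG32115 was not called in the heat-shocked libraries alone either. These intervals cover counting error only. CG31921 was at 22.6 and 24.3 CPM against lows of 159 and 163 CPM (-3.04 ± 0.17, edgeR adjusted p = 3.76e-10), and BG642312 at 151 and 159 CPM against lows of 606 and 650 CPM (-2.60 ± 0.25). CG42782 was at 7.85 and 6.46 CPM against lows of 90.6 and 72.9 CPM (-4.81 ± 0.59), and was not called in the heat-shocked libraries alone. Genes that fell were short: 7 of the 12 had under 1000 annotated exonic bases, as had 25.6% of all genes tested, and 4 of the 15 that rose.

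Over all genes counted, lncRNA:CR45981 (3L:2621721-2622629) had 0 counts in both RAL737 libraries and 20 to 523 in every other library. The pooled level of the other libraries, from 3655 counts, was at least 110-fold higher, with a floor of 3 counts over both RAL737 libraries. That bound is for the pooled level and not for each line. The gene was not called (edgeR adjusted p = 0.0663), and its level varied from 0.686 to 19.7 CPM among the other lines. The reverse held for lncRNA:CR44547 (3L:11034802-11035905), with 108 and 44 counts in RAL737 and at most 2 in any other library, a ratio of 241 (95% exact counting interval 114 to 608). It was too low in the other lines to enter the tests.

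Of the 27 genes, 5 had a called gene as a nearest tested neighbour, where 0.898% of all genes were called. For 7 of the 27 a nearest neighbour was outside the range on the same side, where 6.04% of all genes were outside it on either side. A gene has a tested neighbour to its left and to its right, so these shares are no matching baseline. Rop and Ras64B are neighbours of each other, as are the overlapping genes aux and CG31516, and each of them counts in both the 5 and the 7. The remaining gene of the 5 was CG42449, next to Tre1. Rop, Ras64B and Akh were 1 of 3 runs of 3 neighbouring tested genes outside the range on the same side, and no longer run was found. The second run, asRNA:CR44062, bond and sit on 3R, was below the other lines, with log2 differences of -1.35, -0.33 and -0.57. The third, CG10513, CG10514 and CG11892 on 3R, was above them, with 0.60, 0.76 and 1.11. No gene of these 2 runs was called by edgeR (smallest adjusted p 0.0511, for CG11892).

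The antimicrobial peptide, blood cell, chemoreceptor, odorant binding protein and UDP-glycosyltransferase lists held 1 or 2 calls each of the fit on 20 libraries, which called 0.898% of all genes. None of these calls, named after their values were seen, passed on line sums. The antimicrobial peptide gene CecA1 was lower by 2.71 ± 0.51 on the log2 scale (edgeR adjusted p = 0.00762), as the 1 of 29 antimicrobial peptide genes called. NimC1, a receptor of blood cells for engulfing bacteria, was lower by 2.73 ± 0.43 (edgeR adjusted p = 0.00124), as the 1 of 12 blood cell genes called. Among 63 chemoreceptors Gr97a was higher (2.07 ± 0.44) and Gr32a, which serves bitter taste and the detection of other males, was lower (-1.75 ± 0.33). Obp83g was the 1 called of 37 odorant binding proteins (1.26 ± 0.22), and Ugt36A1 of 31 UDP-glycosyltransferases (-2.51 ± 0.54). For Hsp70 copies, small heat shock proteins, other chaperones, ER folding, muscle, clock, cytochrome P450, cuticle and ribosomal protein genes, edgeR called 0 genes between RAL737 and the other lines. The list medians farthest from 0 were those of the 5 larval serum proteins (-0.89), of 47 histone genes (0.49) and of the gut proteases (-0.46), and no larval serum protein or histone gene was called by edgeR.

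The heat shock response of RAL737 itself, from its 2 libraries, with each line a block of the fit, was called for 282 genes, or 2.06%, of which 202 (1.48%) rose and 80 (0.584%) fell. With 1 library per treatment this takes the response of RAL737 to vary like that of the other lines. Without RAL409 the count was 455, and with no replicate block it was 115. Scaling by library totals moved the median response of all genes to -0.18, from 0.00, and turned the split into 177 higher and 401 lower genes of 578 called. In the other 9 lines alone, 4735 genes, or 34.6%, were called, 2155 (15.7%) higher and 2580 (18.8%) lower, and 4696 without RAL409. That test has 9 pairs of libraries against 1, so the 2 counts do not compare the strength of the responses.

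Chaperone genes rose in RAL737 as they did elsewhere. The 6 Hsp70 copies, nearly identical genes that are counted together here, went from 30.1 to 43597 CPM, a log2 change of 10.50, and the changes in the other lines ran from 9.64 to 11.21 with a median of 10.47. Hsp68, an inducible relative of Hsp70, went from 50.8 to 7225 CPM (7.15, others 6.81 to 7.70). Hsp83, the Hsp90 of the fly, went from 576 to 8078 CPM (3.81, others 3.43 to 3.97). The small heat shock genes Hsp23, Hsp26 and Hsp27 rose by 6.91, 6.86 and 6.09, and the co-chaperone genes DnaJ-1 and stv by 4.35 and 4.20, all inside the changes of the other lines. Of 10 small heat shock protein genes tested 5 rose, of 16 other chaperone genes with Hsf 9 rose, and of 30 ER folding genes 3 rose, namely Hsc70-3, PEK and Xbp1, where 1.48% of all genes rose. For the response of the other 9 lines in the same fit of 20 libraries, which called far more genes, 7 small heat shock protein genes rose. There 14 other chaperone genes rose and 1 fell, and 9 ER folding genes rose and 6 fell. Of all 13690 genes tested, 2149 rose and 2580 fell in that test. Genes for chaperones in these lists took 8.26% of all counts in heat-shocked RAL737, below the 8.40% to 11.2% of the other heat-shocked libraries, from 0.621% without heat shock.

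**Figure D4:**
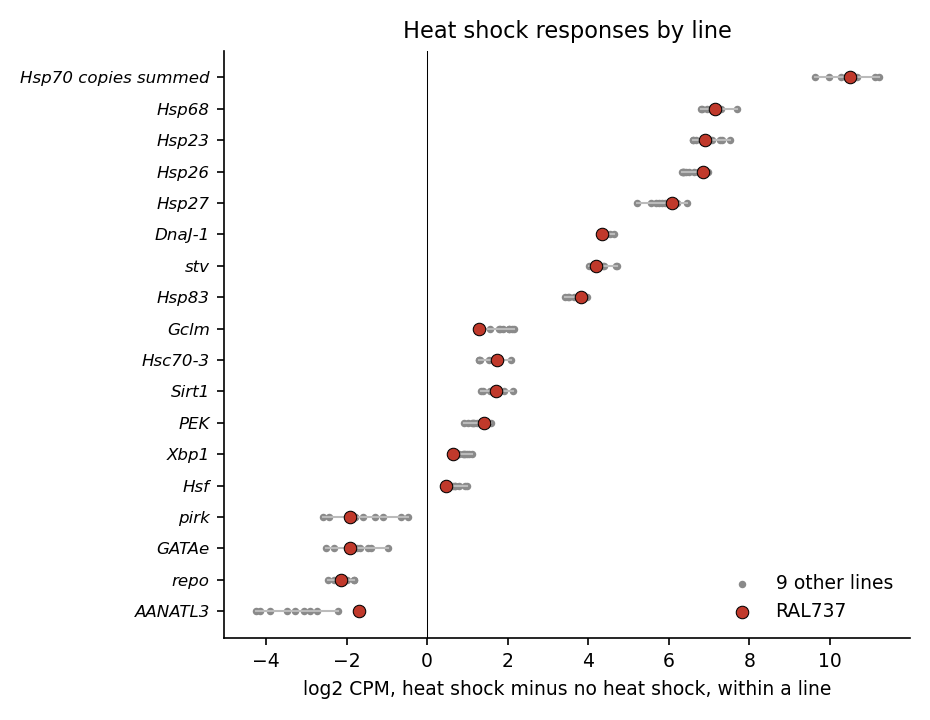
Change in log2 CPM (prior count 2) from no heat shock to heat shock within each line, for 17 genes and the sum of 6 Hsp70 copies. Red points are RAL737 and grey points the 9 other lines, joined by a line from the lowest to the highest. RAL737 lay inside the grey points except for Hsf, Xbp1 and Gclm, where it had the smallest increase, and AANATL3, where it had the smallest decrease.

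In the plot of responses by line, RAL737 fell outside the other 9 lines for 4 of 18 entries. The increase of Hsf was 0.48 (others 0.53 to 0.99), that of the unfolded protein response factor Xbp1 0.64 (others at least 0.76), and that of Gclm, a subunit of the enzyme that starts glutathione synthesis, 1.29 (others 1.30 to 2.16). AANATL3, an acetyltransferase gene, fell by 1.70 (others -4.26 to -2.21). By this measure RAL737 was outside the other lines for 17.83% of all genes tested, and other lines were so for 11.69% to 36.93%, so that 4 of 18 is near the share over all genes. None of the 4 differences passed the test of the response (edgeR adjusted p = 1 for each).

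**Figure D5:**
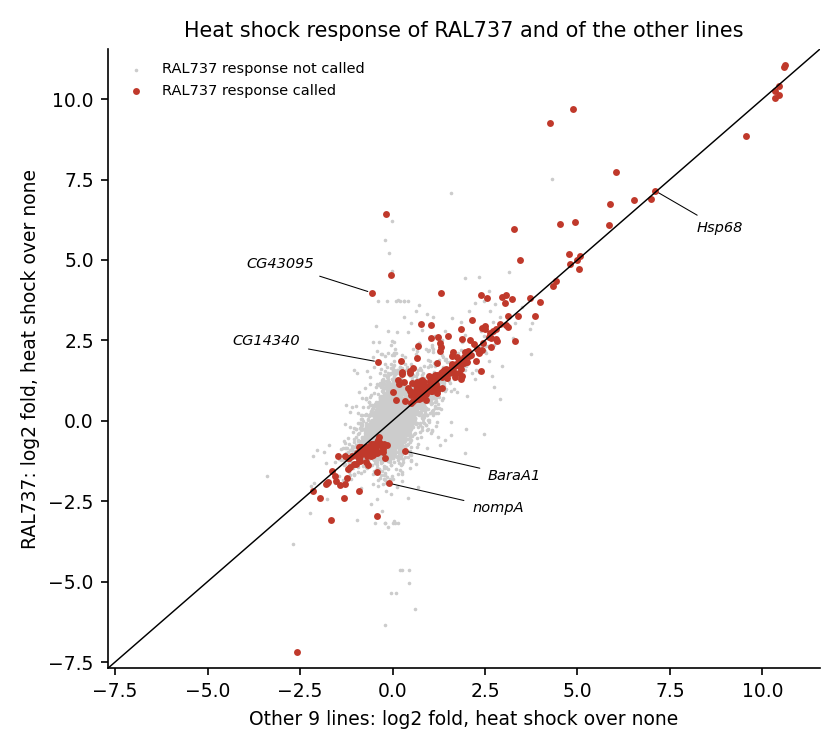
Fitted log2 fold change with heat shock in the other 9 lines (horizontal axis) and in RAL737 (vertical axis), 1 point per gene tested, with the line of equal response. Red points are the 282 genes whose response was called in RAL737. Most follow the diagonal up to the Hsp70 copies, with CG43095, CG14340, BaraA1 and nompA among the exceptions near a response of 0 in the other lines.

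Most heat-responsive genes moved in RAL737 as they did in the other lines. Of 4726 genes called in the other 9 lines alone and tested in both fits, 90.69% had the same direction in RAL737. The slope through 0 was 1.00, and the correlation across these genes, which share libraries and are no replicates, was 0.896. For the 2578 of them that fell in the other lines the correlation was 0.595 and the slope 0.93, and over all 13659 genes tested in both fits 73.81% had the same direction, with a correlation of 0.743. Among the 325 that rose at least 2-fold in the other lines the median was 1.69 in RAL737 and 1.59 in the others on the log2 scale. Of the 282 genes called in RAL737, 281 were tested in the other lines alone, where 268 were called in the same direction, 2 in the opposite direction and 11 not at all.

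A test of the difference between the response of RAL737 and that of the other lines called 0 of 13690 genes (0%) by edgeR, with a smallest adjusted p of 0.164. At an unadjusted p under 0.05 were 3.84% of the genes, 226 (1.65%) with a higher and 300 (2.19%) with a lower response in RAL737. DESeq2 called 10 genes, with 407 at an unadjusted p under 0.05. The edgeR fit without RAL359 called 1, nompA. This gene, named here after its values were seen, encodes a protein that joins sensory neurons to the cuticle. It was at 20.5 CPM without heat shock in RAL737, when the other lines had 2.39 to 4.71 CPM, and at 5.33 CPM with heat shock, inside their 1.81 to 5.56 CPM. Its own response in RAL737 was -1.94 ± 0.28 (edgeR adjusted p = 0.00165) and its response in the other lines -0.10, a difference with an adjusted p of 0.164 in the edgeR fit of all lines and 0.00281 by DESeq2. That difference rests on 1 library of RAL737, the one without heat shock.

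The 2 genes called in opposite directions, named after their values were seen, were BaraA1 and CG14340. BaraA1, which encodes an antimicrobial precursor peptide, fell in RAL737 from 98.7 to 51.6 CPM (-0.94 ± 0.22, edgeR adjusted p = 0.0484) and rose in the other lines by 0.33. CG14340 rose from 0.939 to 3.35 CPM (1.83 ± 0.35, edgeR adjusted p = 0.0126) and fell in the other lines by 0.38. Both differences had adjusted p-values above the threshold by edgeR (0.321 and 0.164) and below it by DESeq2 (0.00281 and 0.0335). Among the 11 genes called in RAL737 and not in the other lines, named after their values were seen, was the urate oxidase gene Uro. It went from 26.0 to 94.9 CPM, above the 26.0 to 64.9 CPM of the other heat-shocked libraries, with a response of 1.87 ± 0.32 (edgeR adjusted p = 0.00583, and 0.397 for the difference, which DESeq2 called with an adjusted p of 0.00625). The Notch pathway ligase gene neur went from 4.96 to 11 CPM (1.15 ± 0.23, edgeR adjusted p = 0.0173, and 0.870 for the difference).

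Genes encoded in the mitochondrial genome, which supply subunits of the respiratory chain and the mitochondrial ribosomal RNAs, took a larger share of the counts of RAL737 with heat shock, but no single one was called. The unheated share of RAL737, 2.96%, was near the lowest of the other lines (2.92% to 6.90%). Its share with heat shock, 5.0%, lay inside theirs (1.40% to 5.83%). RAL387, the 1 other line whose share rose, had the lowest unheated share. Of 15 mitochondrial genes tested, 10 had a response above 0 in RAL737 and 1 in the other lines, with medians of 0.65 and -0.22. The cytochrome oxidase gene mt:CoI went from 3652 to 6596 CPM, above the 2505 to 5716 CPM of the other heat-shocked libraries. For mt:Cyt-b the values were 673 and 1598 CPM, against 463 to 1381 CPM with heat shock elsewhere. The unheated values of both genes were inside those of the other lines. The large ribosomal RNA mt:lrRNA went from 17612 CPM, below the 17936 to 45408 CPM of the other unheated libraries, to 35308 CPM. With heat shock the others had 9575 to 45970 CPM. The 5 with a response below 0 in RAL737 were mt:ATPase8 (-2.39), mt:ND4L (-2.29), mt:ND6 (-1.49), mt:ND2 (-0.94) and mt:srRNA (-0.47), all at under 50 CPM. None of the 15 was called, for the response of RAL737 or for the difference (edgeR adjusted p = 1 for each difference), and 10 had an unadjusted p under 0.05 for the difference, against 3.84% of all genes. These 10 were 8 with a higher response in RAL737 than in the other lines and 2 with a lower one, mt:ATPase8 (difference -2.80) and mt:ND4L (-2.26). Mitochondrial genes are transcribed as shared precursors, so they are not independent observations, and the share of counts they took differed widely between libraries (1.40% to 6.90% in the other lines).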

How the data were processed

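Whole male flies of 10 inbred lines were profiled by RNA-seq of messenger RNA, with a stranded kit per the labels' protocols. The authors deposited raw gene counts, whole numbers under 17807 FlyBase identifiers, with 1 column for each of the 20 libraries. Tools and builds named in the submitters' processing notes are BDGP6, Bowtie2 2.2.9, SAMtools 1.12 and DESeq2 1.28.1. The counting tool and its strand setting are not given in the sources used here, and sequence differences of the lines from the reference were not analysed here. The authors' 2 result tables compare classes of lines and were not used.

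Symbols and positions came from the BDGP6 annotation of Ensembl, which held 17710 of the identifiers. Tests used R 4.3.3 and edgeR 4.0.16 on the counts as deposited: filterByExpr by treatment, TMM scaling, and quasi-likelihood F tests with Benjamini-Hochberg adjustment over 13690 genes. SE is the log2 difference divided by the square root of F. The line difference was fitted on 20 libraries with treatment as covariate. Responses were fitted with line as a block and a treatment effect of its own for RAL737 (8 residual degrees of freedom). Each line gave both its libraries, per the genotype label, and same-line deviations correlated at 0.542 to 0.819, against at most 0.120 between lines.

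Named genes passed both fits and the range, had at least 1 CPM in RAL737 (higher) or in the mean of the other lines (lower), and were up to 12 per direction by size, up to 5 by p and up to 4 per list, beside fixed heat shock genes, genes with counts in RAL737 only or in all others only, and runs of neighbours. One gene that met this rule is not reported here. Other genes given with values were chosen after their values were seen. The members and the 30 lists were chosen with earlier results of these data known. Alternatives were limma 3.58.1 with a replicate block, DESeq2 1.42.0, line sums, line means, other scalings and filters, single treatments, and each other line left out. The tests were tested on simulated data. Total counts set counting error only.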

Additional observations from a re-analysis of the deposited data

Results flagged for a closer look

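In 7 of 98 groups of the 9 other lines, over 49 genes named or in runs of neighbours, the highest or lowest line stood far from the rest. Chance flags about 1 in 20 such groups. Without heat shock these were CG14957 in RAL69 (0.713 CPM, next 0.343 CPM), Cad96Ca in RAL819 (18.7 CPM, next 16.4 CPM) and GATAe, a transcription factor of the gut, in RAL409 (8.98 CPM, next 12.1 CPM). With heat shock they were CG43051 in RAL409 (8.68 CPM, next 6.84 CPM) and 3 genes in RAL304: the ER chaperone gene Hsc70-3 (2160 CPM, next 1487 CPM), the deacetylase gene Sirt1 (151 CPM, next 124 CPM) and the fatty acid elongase gene bond (194 CPM, next 146 CPM). In CG14957 the outlying line is the one nearest to RAL737, and in the lower genes CG43051 and Cad96Ca it is the one farthest from it.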

How the results depend on the processing

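The 123 genes of the line difference became 244 with DESeq2, 45 with limma-voom and line as a replicate block, 28 on line sums, 21 without and 18 with heat shock alone, and 20 on line means of log2 CPM, an alternative chosen after seeing the data. Leaving out each other line gave 110 to 156. The 27 genes of the rule were chosen outside the range on the same side in both treatments and called on line sums. A turn of direction in them was therefore nearly excluded beforehand, and a loss on line sums was excluded. Of the 27 genes of the rule, 0 turned direction, 6 lost the call under the replicate block, 8 without and 11 with heat shock alone and 9 on line means, and 22 passed a filter of 1 CPM in 10 libraries, all of which were called. The 282 genes of the response became 505 at an adjusted p under 0.1, 578 with library totals, 115 with no replicate block, and 249 to 455 without each line. The response difference gave 0 genes by edgeR, 10 by DESeq2 and 0 to 1 without each line. The 4735 genes of the other lines became 2431 with no replicate block and 4696 without RAL409. The 827 genes outside the range became 94 with the 1.5-fold gap and 909 to 1086 without each line.

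The single library per line and treatment, 18.4 M counts at the shallowest, limits genes of few counts: 91 genes with at least 10 counts in both RAL737 libraries were not tested. Both libraries of RAL737 come from the same inbred line, and differences of the line cannot be told apart from differences of its vials or pools.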

Other observations

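The genes called in the fit on 20 libraries held more noncoding RNAs above than below the other lines. Of 1220 noncoding RNAs tested, 20 were called by edgeR on 20 libraries, 14 of them higher in RAL737, and of 12239 coding genes 102 were called, 50 of them higher. The p-values of that fit are too small, as it takes both libraries of a line as independent. Among the 27 genes considered above, 2 were noncoding, both higher, and 13 of the 25 coding genes were higher.

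The eggshell gene Cp18, whose protein is made in ovarian follicle cells, rose with heat shock in these males. It went from 0.225 to 15.99 CPM in RAL737 (6.12 ± 0.43 on the log2 scale, edgeR adjusted p = 1.63e-06). In the other lines it went from a median of 0.769 CPM to 18.01 CPM, and the 2 treatments did not overlap. The eggshell gene Cp19, too low to be tested, went from 0.0751 to 1.13 CPM in RAL737 and lay between 0 and 1.30 CPM in the other libraries. Cp16, Cp36 and Cp38 were at 0.170 CPM or less in both libraries of RAL737. The taste receptor gene Gr89a went from 0 to 3.86 CPM in RAL737 and from a median of 0.147 to 4.13 CPM in the other lines. The signalling inhibitor gene Socs36E went from 20.01 to 57.1 CPM in RAL737 (1.51 ± 0.26, edgeR adjusted p = 0.00569), above the 21.4 to 38.5 CPM of the other heat-shocked libraries, and the difference in response was called by DESeq2 (adjusted p = 0.0445) and not by edgeR (adjusted p = 0.510).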
